A study of Homo sapiens with 4 samples.

Results

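The promoters of 8 epithelial keratin genes were followed through H3K27ac HiChIP data of 4 untreated human colorectal cancer cell lines: KRT8, KRT7 and KRT80, which encode type II keratins, and KRT18, KRT19, KRT20, KRT23 and KRT17, which encode type I keratins. HiChIP joins DNA ends that lie close together in fixed nuclei and then enriches for chromatin carrying a chosen mark, here acetylation of lysine 27 on histone 3, which is found at active promoters and enhancers. A loop is a pair of 2 different anchors (segments of the genome) on 1 chromosome, and its strength is its number of paired-end tags (PETs). A keratin gene was given every filtered loop, and every pair of an anchor with itself, that had an anchor within 5 kb of its transcription start site (TSS, hg19, known to 1 kb). Of the 8 genes, 6 had loops in at least 1 line, and KRT20 and KRT17 had none in any. The keratin promoters held 96 of 40696 filtered loops in HCT116, 149 of 74401 in LS513, 63 of 62104 in SW620 and 30 of 7024 in SW480.

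All 4 lines (HCT116, LS513, SW620 and SW480) are established colorectal cancer lines grown under standard conditions, with 1 library each. SW480 and SW620 were derived from a primary tumour and a later metastasis of the same patient. Cells were fixed with formaldehyde, cut with MboI, ligated, precipitated with an antibody to H3K27ac and made into libraries with Tn5 transposase. The labels give no genotype, and no cells were treated. The epithelial label was not checked against markers outside the keratins, because no hg19 annotation was used.

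Keratins are the intermediate filament proteins of epithelial cells. Each filament is built from an acidic type I chain paired with a basic type II chain, so genes of both types must be active in the same cell. KRT8 and KRT18 form the main pair of simple epithelia such as the lining of the gut, where KRT19 and KRT20 are further type I chains and KRT20 is typical of mature surface cells. KRT7 is typical of ducts and glands and is used with KRT20 to tell tumours of the colon from those of other organs. The type II genes lie in a cluster on chromosome 12 and the type I genes in a cluster on chromosome 17, except KRT18, a type I gene that lies beside KRT8 at the edge of the type II cluster.

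Filtered loops held 81579 PETs in HCT116, 222113 in LS513, 152421 in SW620 and 13885 in SW480, so a single PET weighed most in SW480. Loop levels are therefore given scaled to 1000000 filtered PETs in each library and called normalised PETs, with an exact 95% Poisson interval that covers counting error only. Pairs of an anchor with itself, called same-anchor PETs here, held 863012, 1386645, 844521 and 130508 PETs in HCT116, LS513, SW620 and SW480, and are scaled to 1000000 of these in the same way. No line had a replicate, so no difference below carries a test or a replicate check. HCT116 and LS513 had 21606 identical anchors, 99.2% of those of HCT116 and 98.1% of those of LS513, whereas SW620 and SW480 had 513, 2.12% and 5.59% of their own. An anchor seen in both HCT116 and LS513 is therefore not a pair of separate observations. PETs were counted between anchors alone, so a promoter without an anchor has no measured level.

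KRT8 and KRT18, the pair of simple epithelia, were the 2 of the 8 genes with an anchor over the TSS in all 4 lines. A pattern of anchors in every line was found at 15.6% of 47157 genomic tiles of 10 kb that touched an anchor in any library. The anchor over the KRT8 TSS (53299000 on chromosome 12) ran from 53293227 to 53324808 in HCT116 and LS513, from 53296000 to 53325940 in SW620 and from 53296747 to 53324808 in SW480. KRT8 loops held 127 PETs in HCT116, 355 in LS513, 167 in SW620 and 28 in SW480. These counts were 1557 normalised PETs (interval 1298 to 1852), 1598 (1436 to 1774), 1096 (936 to 1275) and 2017 (1340 to 2914) in the same order of lines. SW480 stood highest and SW620 lowest, and the interval of SW480 overlapped those of HCT116 and LS513 but not that of SW620. The ratios to SW480 were 0.772 in HCT116, 0.793 in LS513 and 0.543 in SW620. Over tiles with anchors in both lines the median ratios to SW480 were also below 1, at 0.766, 0.586 and 0.638. The ratio of HCT116 to LS513 was 0.974 (0.789 to 1.2), and that of HCT116 to SW620 was 1.42 (1.12 to 1.8).

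KRT18 (TSS at 53343000, 44 kb above KRT8 in coordinates) had 83 loop PETs in HCT116, 278 in LS513, 104 in SW620 and 11 in SW480. As rates these were 1017 normalised PETs (810.4 to 1261), 1252 (1109 to 1408), 682 (558 to 827) and 792 (395 to 1418). LS513 stood highest here, its interval overlapping those of HCT116 and SW480. LS513 exceeded SW620 1.83-fold by loop PETs (1.46 to 2.32) and 2.1-fold by same-anchor PETs (1.79 to 2.46). The loop rate of HCT116 lay 1.49-fold above that of SW620 (1.1 to 2.01).

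Same-anchor PETs gave another order of the lines. At KRT8 they numbered 449 in HCT116 (520.3 normalised, 473 to 571), 844 in LS513 (609, 568 to 651), 647 in SW620 (766, 708 to 827) and 175 in SW480 (1341, 1150 to 1555). None of these intervals overlapped except those of HCT116 and LS513, which met between 568 and 571. At KRT18 they numbered 239 (277, 243 to 314), 699 (504, 467 to 543), 203 (240.4, 208 to 276) and 56 (429, 324 to 557) in HCT116, LS513, SW620 and SW480. KRT18 thus stood higher in LS513 and SW480 than in HCT116 and SW620 on this scale. Its same-anchor ratios to SW480 were 0.645 in HCT116, 1.17 in LS513 and 0.56 in SW620. Over tiles with anchors in both lines the median same-anchor ratios to SW480 were 0.605, 0.565 and 0.604 in that order.

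The strongest loop of either gene in all 4 lines joined the 2 promoters to each other, a type II gene with the type I gene whose product it pairs with. It held 49 PETs in HCT116, 194 in LS513, 75 in SW620 and 10 in SW480, which is 601 normalised PETs (444 to 794), 873 (755 to 1005), 492 (387 to 617) and 720.2 (345 to 1324). Its share of all KRT18 loop PETs was 59% in HCT116, 69.8% in LS513, 72.1% in SW620 and 90.9% in SW480, with exact Clopper-Pearson 95% intervals of 47.7 to 69.7, 64 to 75.1, 62.5 to 80.5 and 58.7 to 99.8. Its share of KRT8 loop PETs was 38.6% (30.1 to 47.6), 54.6% (49.3 to 59.9), 44.9% (37.2 to 52.8) and 35.7% (18.6 to 55.9). LS513 was higher than SW620 by 1.78-fold in this loop (1.35 to 2.35), and HCT116 stood at 0.688 of LS513 (0.492 to 0.945). The authors' deposited table gave the SW480 loop an adjusted p of 9.3e-05, and 0 to the printed precision in the other lines. KRT8 and KRT18 have many processed pseudogenes, and how reads with several matches were handled is not given in the sources used here.

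Both promoters also shared a partner on the far side of KRT18. The anchor from 53357079 to 53372501, or those overlapping it in SW620 and SW480, was joined to KRT8 by 24 PETs in HCT116, 34 in LS513, 15 in SW620 and 4 in SW480, or 294 normalised PETs (188 to 438), 153 (106 to 214), 98.4 (55.1 to 162) and 288 (78.5 to 738). The same anchor was joined to KRT18 by 8, 22 and 10 PETs in HCT116, LS513 and SW620, with no loop listed in SW480. KRT8 also reached beyond KRT80. An anchor from 52530425 to 52561883, 763 kb away, held 7 PETs with it in HCT116, 15 in LS513 and 5 in SW480, where the overlapping anchor began at 52532517. SW620 had no anchor there, and its KRT8 loops past KRT80 included 3 PETs to an anchor from 52419083 to 52466017.

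**Figure D1:**
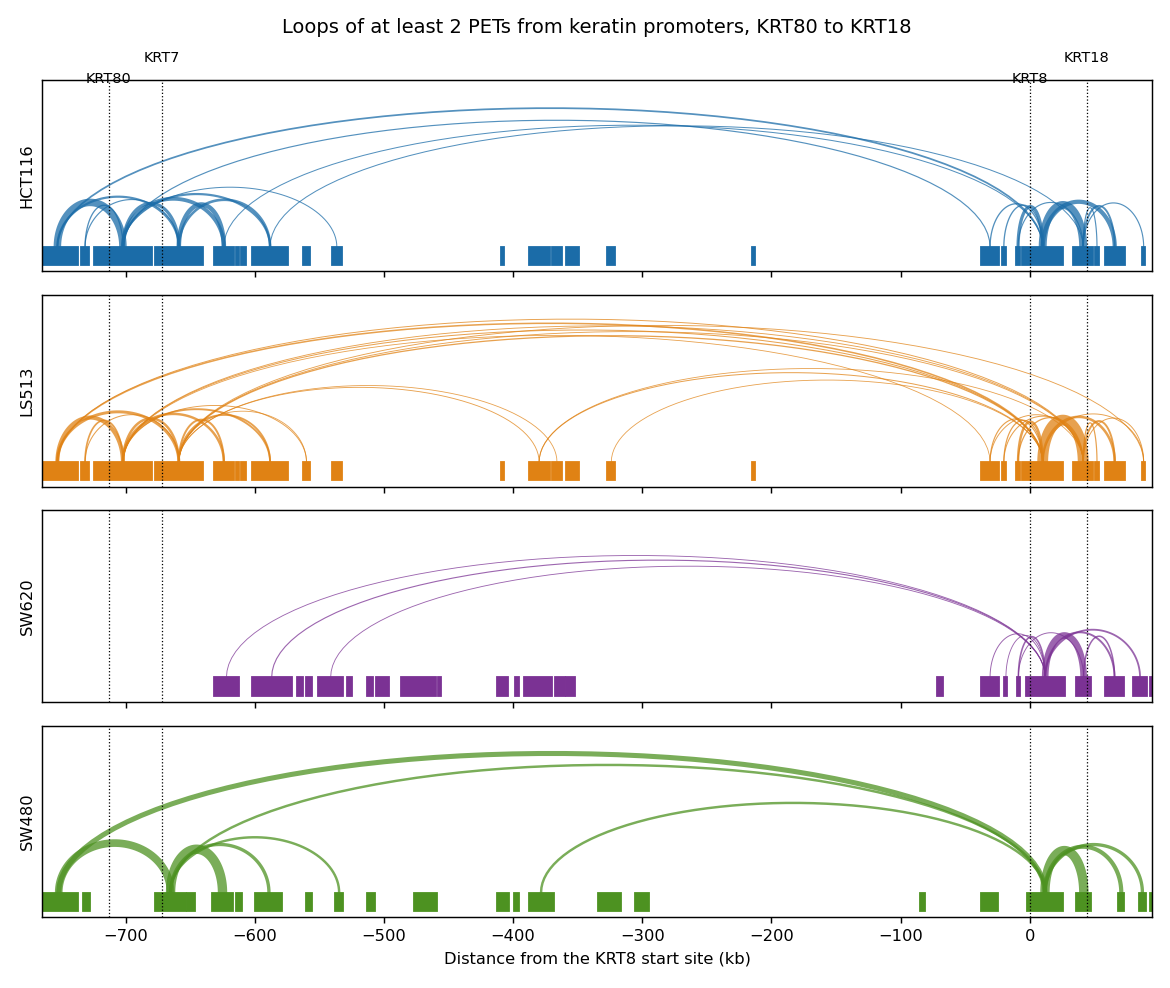
Loops of KRT80, KRT7, KRT8 and KRT18 on chromosome 12 in HCT116, LS513, SW620 and SW480 (top to bottom), drawn as arcs (at least 2 PETs, wider with more normalised PETs) over distance in kb from the KRT8 TSS with anchors as bars. The arc between KRT8 and KRT18 is present in all 4 lines, and SW620 has neither anchors nor arcs at KRT80 and KRT7.

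KRT7 (TSS at 52627000 on chromosome 12), the type II keratin of ducts and glands, had an anchor over its TSS in HCT116, LS513 and SW480 and none in SW620. Its loops held 80 PETs in HCT116, 167 in LS513 and 26 in SW480, or 981 normalised PETs (778 to 1220), 752 (642 to 875) and 1873 (1223 to 2744). SW480 was the highest, its interval just clear of that of HCT116, while HCT116 and LS513 overlapped. At KRT7 the loop ratios to SW480 were 0.524 in HCT116 and 0.402 in LS513. Over tiles with anchors in both lines the median ratios to SW480 were 0.766 and 0.586. With anchors up to 10 kb counted, which adds the anchor of KRT80 in HCT116 and LS513, KRT7 had 2157 normalised PETs in HCT116, 1513 in LS513 and 1873 in SW480, and HCT116 was the highest. In same-anchor PETs HCT116 was the highest instead, with 470 in HCT116 (545 normalised, 496 to 596), 534 in LS513 (385, 353 to 419) and 37 in SW480 (284, 199.6 to 391), the intervals of LS513 and SW480 overlapping. The anchor was 37.3 kb long in HCT116 and LS513 and 24.6 kb in SW480.

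KRT80 (TSS at 52586000), a type II keratin gene 41 kb from KRT7, had an anchor in HCT116 and LS513 alone, from 52574732 to 52619093. Its loops held 113 PETs in HCT116 and 202 in LS513, or 1385 normalised PETs (1142 to 1665) and 909 (788 to 1044), and the intervals did not overlap. Same-anchor PETs numbered 381 (441 normalised, 398 to 488) in HCT116 and 420 (303, 275 to 333) in LS513. An anchor pattern of HCT116 and LS513 without the other lines was found at 17.9% of the tiles. In SW480 the nearest anchor lay 14.6 kb from the KRT80 TSS, and in SW620 it lay 64.3 kb away.

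KRT7 and KRT80 were looped to each other by 17 PETs in HCT116 (208 normalised, 121 to 334) and 33 in LS513 (149, 102 to 209), and both were looped to the same neighbours. With the anchor from 52530425 to 52561883, KRT80 held 46 PETs in HCT116 (564 normalised, 413 to 752) and 62 in LS513 (279, 214 to 358). With that anchor KRT7 held 10 PETs in HCT116 (123, 58.8 to 225) and 41 in LS513 (185, 132 to 250.4). In SW480 KRT7 held 8 PETs (576 normalised) with the overlapping anchor from 52532517 to 52561883. With the anchor from 52667117 to 52682958, KRT7 held 26 PETs in HCT116 (319, 208 to 467) and 23 in LS513 (104, 65.6 to 155). In SW480 it held 10 PETs (720.2 normalised) with the overlapping anchor from 52666078 to 52681926. HCT116 was thus above LS513 in the KRT7 loop to one side and not in the loop to the other side.

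In SW620 no anchor lay between 52521675 and 52667252, a stretch that holds both TSSs and the anchor beginning at 52530425. The nearest anchor to KRT7 in SW620 lay 40.3 kb away. SW480, which also lacked an anchor at KRT80, kept the neighbouring anchor from 52532517 to 52561883, with 159 same-anchor PETs or 1218 normalised.

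Contacts between the KRT80 and KRT7 promoters and the KRT8 and KRT18 promoters were sparse. KRT7 and KRT8, 672 kb apart, were joined by 1 PET in HCT116, 10 in LS513 (45 normalised, 21.6 to 82.8) and 2 in SW480. KRT7 and KRT18 were joined by 1 PET in HCT116 and 3 in LS513, and in LS513 KRT80 was joined to KRT8 by 5 PETs and to KRT18 by 3. These counts were too low to order the lines. In LS513 the authors' deposited table gave KRT7 to KRT8 an adjusted p of 0 to the printed precision and KRT7 to KRT18 6e-07. KRT80 to KRT8 had 2.2e-12 and KRT80 to KRT18 4.5e-07 there. The same column held 0.013 for both HCT116 loops and 0.00017 for the SW480 loop.

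KRT19 (TSS at 39685000 on chromosome 17), a type I keratin of simple epithelia and the smallest of the family, had 2 anchors within reach in HCT116, LS513 and SW480 and none in SW620. Its loops held 145 PETs in HCT116, 438 in LS513 and 19 in SW480, or 1777 normalised PETs (1500 to 2091), 1972 (1792 to 2166) and 1368 (824 to 2137). All of these intervals overlapped. Same-anchor PETs numbered 875 (1014 normalised, 948 to 1083), 1439 (1038, 985 to 1093) and 76 (582, 459 to 729), with SW480 below both other lines. These levels rested on both anchors: within 2 kb, which leaves the anchor over the TSS alone, the normalised same-anchor PETs were 582 in HCT116, 604 in LS513 and 467 in SW480. Normalised loop PETs were then 1226, 1279 and 1080. Both anchors together measured 63.8 kb in HCT116 and LS513 and 28.2 kb in SW480. The anchor over the TSS alone measured 38.7 kb in HCT116 and LS513 and 17 kb in SW480. The part of anchor length in these levels was not tested. The nearest anchor in SW620 was a short one of 3.12 kb, 26.3 kb from the TSS.

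The loop between the 2 anchors of KRT19 itself, which lie 790 bp apart in HCT116 and LS513, held 47 PETs in HCT116, 136 in LS513 and 7 in SW480. Outside the promoter, the leading partner in HCT116 and LS513 was the anchor from 39803016 to 39824865, which lies beyond the KRT17 TSS. The KRT19 anchor from 39689379 to 39714456 held 20 PETs with it in HCT116 (245 normalised, 149.8 to 379) and 90 in LS513 (405, 326 to 498). The anchor over the TSS, from 39649844 to 39688588, held 9 (110.3, 50.4 to 209) and 57 (257, 194 to 332). LS513 was the higher line in both, the ratios of HCT116 to LS513 being 0.605 (0.353 to 0.99) and 0.43 (0.187 to 0.875). A partner from 39057303 to 39062955, 609 kb away and 16.3 kb from the KRT20 TSS, held 5 PETs with the KRT19 anchor over the TSS in HCT116 and 17 in LS513, and 4 and 7 with the other KRT19 anchor.

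The pattern of KRT7 and KRT19, with anchors in HCT116, LS513 and SW480 and none in SW620, was found at 2.03% of the 47157 tiles. Among the 8307 tiles with an anchor in those 3 lines, 11.5% had none in SW620. The 2 genes lie on different chromosomes. They were each other's nearest in loop rate across the 4 lines, with a mean absolute log2 difference of 0.68. A line without an anchor was set to 3 PETs for this measure, which made the 2 genes equal in SW620. The likeness is therefore not separate from the anchor pattern. By the same measure KRT80 was nearest to KRT7 (0.97), KRT8 and KRT18 to each other (0.75), and KRT23 to KRT18 (2.98).

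**Figure D2:**
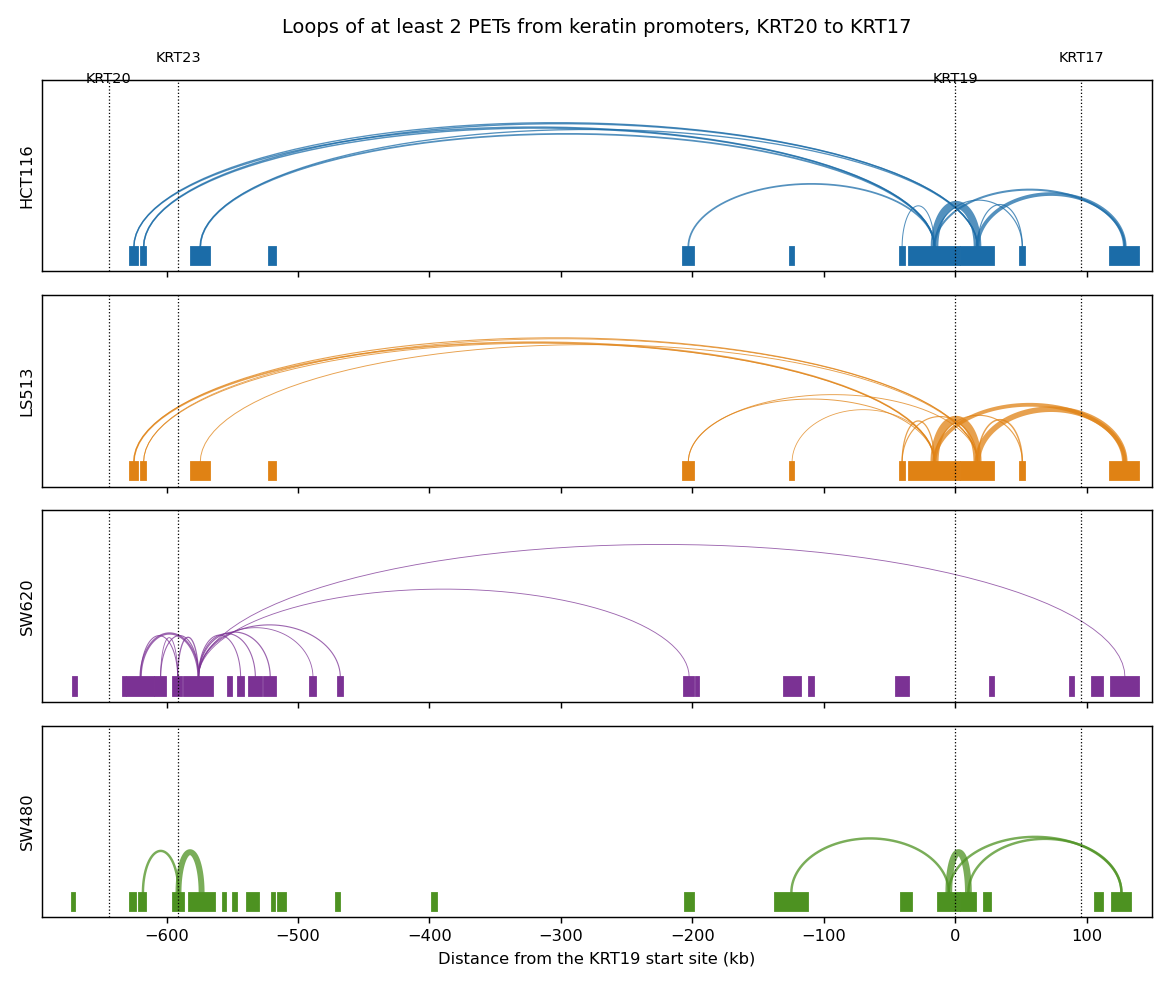
Loops of KRT20, KRT23, KRT19 and KRT17 on chromosome 17 in HCT116, LS513, SW620 and SW480 (top to bottom), drawn as arcs (at least 2 PETs, wider with more normalised PETs) over distance in kb from the KRT19 TSS with anchors as bars. KRT19 arcs are present in HCT116, LS513 and SW480, KRT23 arcs in SW620 and SW480, and none starts at KRT20 or KRT17.

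KRT23 (TSS at 39094000), a type I keratin gene, was the reverse of KRT80, with an anchor within 5 kb in SW620 and SW480 and none in HCT116 and LS513. That pattern was found at 7.39% of the tiles. Its loops held 76 PETs in SW620 and 12 in SW480, or 499 normalised PETs (393 to 624) and 864 (447 to 1510), and the ratio of SW620 to SW480 was 0.577 (0.312 to 1.17). In same-anchor PETs SW620 held 150 (178 normalised, 150.3 to 208) and SW480 6 (46, 16.9 to 100.1).

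These KRT23 levels rested on where anchors ended. The anchor over the TSS ran from 39090184 to 39096757 in SW620 and from 39090184 to 39097975 in SW480, and each held 6 same-anchor PETs. SW620 had a further anchor within 5 kb, from 39098386 to 39120189, with 144 same-anchor PETs, while the matching anchor of SW480, from 39101739 to 39121578 with 69, lay outside. In HCT116 and LS513 an anchor from 39103414 to 39117869 lay 9.41 kb from the TSS. With anchors up to 10 kb counted, KRT23 held 42 loop PETs in HCT116 (515 normalised), 19 in LS513 (85.5), 83 in SW620 (545) and 26 in SW480 (1873). The leading KRT23 loop of SW620 began at that further anchor and reached an anchor from 39055099 to 39075454, with 20 PETs (131 normalised, 80.1 to 203). Overlapping loops held 21 PETs in HCT116 (257, 159 to 393), 6 in LS513 (27, 9.91 to 58.8) and 4 in SW480 (288, 78.5 to 738).

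KRT20, the type I keratin of mature gut surface cells, and KRT17, a type I keratin of basal and wounded epithelium, had no anchor within 5 kb in any of the 4 lines. The nearest anchor to the KRT20 TSS (39041000) lay 16.3 kb away in HCT116, LS513 and SW480 and 11 kb away in SW620. The nearest anchor to the KRT17 TSS (39781000) lay 22 kb away in HCT116 and LS513, 5.68 kb in SW620 and 10.7 kb in SW480, so that anchors up to 10 kb gave KRT17 loops in SW620 alone, at 65.6 normalised PETs. Their absence says that no anchor was listed there, and not how much acetylation the promoters carried. The KRT20 promoter, the one promoter of the 8 for which a RefSeq sequence at the TSS was at hand, is shown as that of the keratin most typical of the colon, in which no loop began. It covers the 250 bases before the start on the minus strand (GRCh38.p14, chr17:40885243-40885492), and the capitals mark its single motif match.
KRT20: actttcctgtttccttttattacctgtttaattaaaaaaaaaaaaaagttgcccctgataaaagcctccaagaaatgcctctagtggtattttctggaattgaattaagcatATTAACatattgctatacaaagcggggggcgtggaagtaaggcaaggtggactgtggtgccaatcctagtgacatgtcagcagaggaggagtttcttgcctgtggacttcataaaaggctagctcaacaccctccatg

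The capitals are the reverse complement of GTTAAT, part of the site bound by HNF1 factors of gut epithelium, 138 bases before the start. This match, on either strand, was found in 6.23% of 35097 promoters of the same length. No match was found of TATAAA (10.7% of promoters), GGGCGG (42.6%), CCACCC (31.3%), CTTTGAT (2.26%), TTTATGG (2.3%), TTTATTG (3.67%) or TGAGTCA and its reverse complement TGACTCA (4.2%), each searched on both strands.

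**Figure D3:**
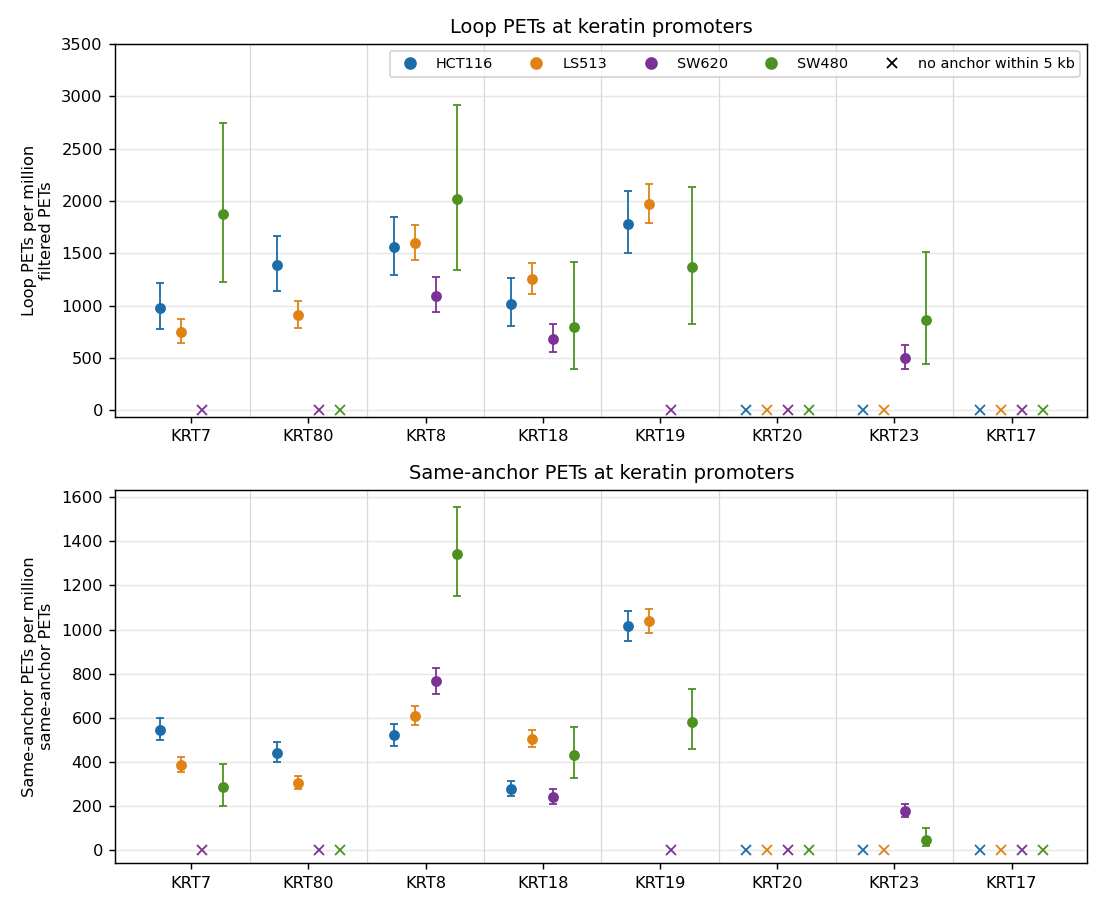
Loop PETs (top) and same-anchor PETs (bottom) per 1000000 loop or same-anchor PETs of the library at each keratin promoter, with 1 point per line in the order HCT116, LS513, SW620 and SW480 and exact 95% Poisson intervals. KRT8 and KRT18 have a point in every line, and crosses at 0 stand for promoters with no anchor within 5 kb.

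HCT116 and LS513, whose anchors were nearly all the same, could be compared place by place. A ratio was called where it was at least 2-fold either way, its exact conditional 95% interval left out 1 and the libraries together held at least 10 PETs. By loop PETs, 0 of the 5 keratin promoters with anchors were called, against 15.1% of 19616 tiles called in either direction. The ratios of HCT116 to LS513 were 1.3 for KRT7 (0.986 to 1.71), 1.52 for KRT80 (1.2 to 1.93), 0.974 for KRT8, 0.813 for KRT18 (0.628 to 1.04) and 0.901 for KRT19 (0.742 to 1.09). Their median was 0.974, and that of the tiles 0.953. With loops of adjusted p under 0.01 in the authors' deposited table, KRT80 was called at 2.08-fold.

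By same-anchor PETs, 0 of 5 were called as well, against 23.7% of 27025 tiles. The ratios were 1.41 for KRT7 (1.25 to 1.6), 1.46 for KRT80 (1.27 to 1.68), 0.855 for KRT8 (0.761 to 0.96), 0.549 for KRT18 (0.472 to 0.637) and 0.977 for KRT19 (0.897 to 1.06). Both type II genes of the KRT7 and KRT80 pair thus lay above 1 and KRT18 below it on both scales, with the loop intervals of KRT7 and KRT18 including 1. With loops of adjusted p under 0.01 in the authors' deposited table, the loop ratio of KRT18 turned to 1.05, that of KRT8 to 1.32 and that of KRT19 to 1.19, none called. Scaled by the PETs of the chromosome, KRT18 was called by same-anchor PETs at 0.476. With this scaling the loop ratios were 1.05 for KRT7, 1.23 for KRT80, 0.784 for KRT8, 0.654 for KRT18 and 0.82 for KRT19. None of these loop ratios was called.

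Single loops at identical anchors were compared in the same way. Of 176 keratin loops in either library, 29 had at least 10 PETs together. Among these 4 were higher in HCT116, against 6.85% of 5942 loops across the genome, and 1 was lower, against 4.68%. The higher loops were KRT80 to the anchor at 52530425 (2.02-fold, 1.35 to 3.01), KRT7 to 52667117 (3.08-fold, 1.69 to 5.65), KRT8 to 53438345 (3.63-fold, 1.1 to 12.7) and KRT19 to 39477777 (3.81-fold, 1.04 to 15.2). The lower loop was that of the KRT19 TSS anchor to 39803016, at 0.43.

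**Figure D4:**
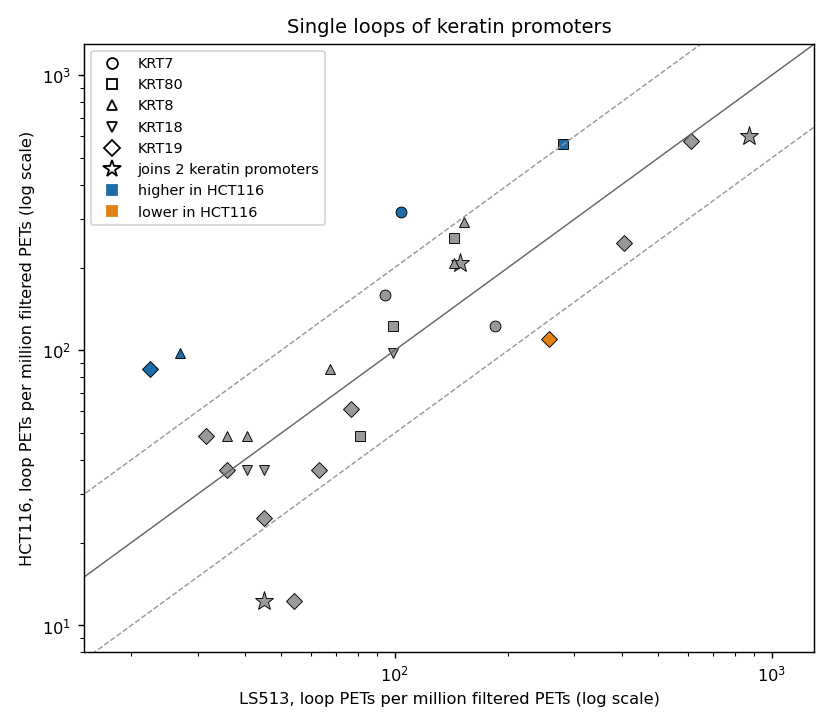
Single keratin loops with at least 10 PETs over HCT116 and LS513 together, as normalised loop PETs in HCT116 (vertical) and LS513 (horizontal) on log axes, with 1 symbol per gene and dashed lines at 2-fold. The KRT8 to KRT18 loop stands farthest to the right at 601 in HCT116 and 873 in LS513, 4 loops are marked higher in HCT116 and 1 lower.

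**Figure D5:**
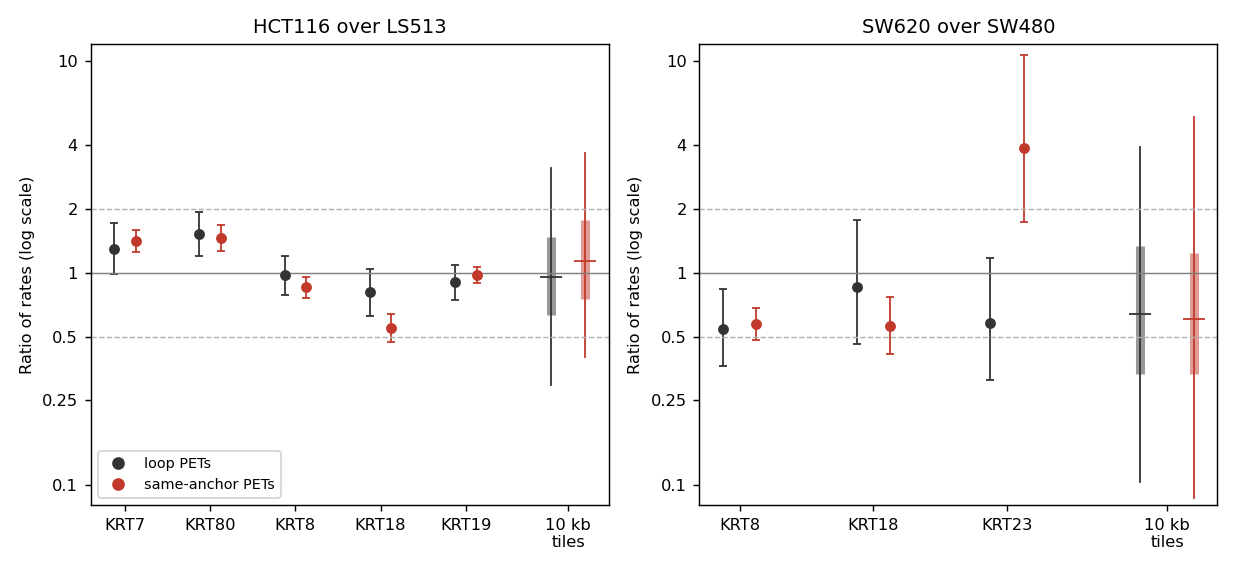
Ratio of rates at each keratin promoter with anchors in both lines (log axis) for HCT116 over LS513 and SW620 over SW480, by loop PETs and by same-anchor PETs, with exact 95% intervals and, at the right of each panel, the median, quartiles and 5% to 95% range of 10 kb tiles with anchors in both lines. The keratin ratios of HCT116 over LS513 stay between 0.549 and 1.52, and KRT23 by same-anchor PETs, at 3.86, is the farthest from 1.

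SW620 and SW480, the pair from 1 patient, differed first in which keratin promoters had anchors. By loop PETs, 2 of 5 keratin promoters were called lower in SW620, where 12.2% of 17032 tiles were. These were KRT7 and KRT19, which count as lower because SW620 had no anchor there. Among the 3 promoters with anchors in both lines 0 were called, where 23.9% of 7544 such tiles were called lower and 4.97% higher. KRT8 stood at 0.543 of SW480 (0.363 to 0.842), KRT18 at 0.861 (0.462 to 1.78) and KRT23 at 0.577. The median ratio over tiles with anchors in both lines was 0.638. Scaled by the PETs of the chromosome, KRT18 turned to 1.24 and KRT8 stood at 0.78, neither called. The interval of KRT8 alone left out 1, and it ran past 2-fold. KRT8 was called lower with loops of at least 2 PETs (0.496), and KRT23 when anchors up to 10 kb (0.291) or within 2 kb (0.137) were counted.

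By same-anchor PETs, KRT8 stood at 0.571 of SW480 (0.483 to 0.679) and KRT18 at 0.56 (0.415 to 0.767), neither called. Both lay near the median ratio of 0.604 over tiles with anchors in both lines, 35.9% of which were called lower. KRT23 was called higher in SW620 at 3.86-fold (1.73 to 10.7). KRT7 and KRT19 again count as lower, which made 2 of 5 against 18.7% of 25445 tiles, and KRT23 was 1 of 3 with anchors in both lines, against 11.2% of 9728 tiles called higher. The KRT23 ratio turned to 0.371 when anchors up to 10 kb were counted and to 0.155 within 2 kb, and was 1.06 per kb of anchor.

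Between HCT116 or LS513 and SW620 or SW480, the calls at promoters with anchors on both sides were the following. By same-anchor PETs LS513 was called higher than SW620 at KRT18 (2.1-fold), where 20.6% of 19695 tiles were called higher. By loop PETs it was not called. KRT7 loop PETs in LS513 were 0.402 of those in SW480 (0.265 to 0.633), where 25.6% of 6309 tiles were called lower. KRT8 same-anchor PETs were 0.388 of SW480 in HCT116 (0.325 to 0.465), where 38.3% of 7711 tiles were called lower, and 0.454 in LS513 (0.385 to 0.537), where 40.3% of 7765 were. SW480 had the fewest PETs and the fewest anchors, 9177 against 24255 in SW620, and the part of depth and anchor coverage in these ratios was not tested.

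Within their own libraries the keratin promoters with anchors stood high among the tiles. By loop PETs KRT19 exceeded 99.8% of tiles with an anchor in HCT116, 99.9% in LS513 and 95.3% in SW480. KRT8 exceeded 99.7%, 99.7%, 99.1% and 97.6% in HCT116, LS513, SW620 and SW480, and KRT18 98.9%, 99.3%, 97% and 89.5%. KRT80 exceeded 99.5% and 98.3% in HCT116 and LS513, KRT7 98.8%, 97.6% and 97.2% in HCT116, LS513 and SW480, and KRT23 94.8% and 90.8% in SW620 and SW480.

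Most of these promoters had long anchors, and the part of anchor length in the ranks was not tested. The anchor over the KRT8 TSS was longer than 98.4% to 99.5% of the anchors of its library and that over KRT80 longer than 99.9%, whereas the median anchor lengths were 4.53, 4.51, 4.36 and 5.29 kb in HCT116, LS513, SW620 and SW480. Among tiles with anchors of at least 10 kb, KRT19 exceeded 98.8%, 99.4% and 85.8% in HCT116, LS513 and SW480. KRT8 exceeded 98.2%, 98.4%, 97.2% and 92.4% of these in the 4 lines, and KRT18 94%, 96%, 90.5% and 71.2%. KRT7 exceeded 93.2%, 87.8% and 91.2% in HCT116, LS513 and SW480, and KRT80 97.2% and 91.2% in HCT116 and LS513. KRT23 exceeded 84.2% in SW620 and 73.9% in SW480. The KRT23 anchor of SW480 measured 7.79 kb and is itself under that length, so its rank there is not one among anchors of like length. Of all these ranks, that of KRT18 in SW480 fell furthest among long anchors, from 89.5% to 71.2%.

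The spans between the outermost genes differed between lines as well. From KRT80 to KRT18, with 50 kb added at each end (857 kb), HCT116 and LS513 each had 24 anchors, SW620 24 and SW480 23. Same-anchor PETs in this span were 3934 normalised in HCT116, 3441 in LS513, 2755 in SW620 and 6046 in SW480. From KRT20 to KRT17, with the same margin (840.0 kb), HCT116 and LS513 had 11 anchors each, SW620 21 and SW480 20. Same-anchor PETs here were 2088, 1783, 854 and 2421 normalised in HCT116, LS513, SW620 and SW480. SW620 had the most anchors and the lowest rate in the type I span, and it listed no anchor at KRT19. In the other lines the KRT19 anchors held 1014 normalised same-anchor PETs in HCT116, 1038 in LS513 and 582 in SW480. Their part in the differences between the span rates was not tested.

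Over all keratin promoters together, loops held 480 PETs in HCT116, 1192 in LS513, 272 in SW620 and 84 in SW480. As shares of all filtered PETs these were 0.588% (exact Clopper-Pearson interval 0.537 to 0.643), 0.537% (0.507 to 0.568), 0.178% (0.158 to 0.201) and 0.605% (0.483 to 0.748). SW620 was the lowest, with 3 of the 8 genes holding loops against 5 in each of the other lines. Of the 47157 tiles, 31152 had an anchor in HCT116, 31472 in LS513, 34766 in SW620 and 14354 in SW480. A promoter without an anchor adds no PETs to these shares, although its level was not measured. The authors' deposited table gave an adjusted p below 0.01 to 36 of the 96 keratin loops in HCT116, 65 of 149 in LS513, 20 of 63 in SW620 and 12 of 30 in SW480. A single PET made up 50, 66, 31 and 14 of the keratin loops in HCT116, LS513, SW620 and SW480.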

How the data were processed

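H3K27ac HiChIP had been run on 4 colorectal cancer lines with 1 library per line. Per the submitters' processing notes, HiC-Pro and the hg19 (GRCh37) build were used. Which programs called peaks and loops, and how anchors were chosen, is not given in the sources used here. Each deposited loop table holds raw PET counts per pair of anchors. The authors' adjusted p-value per loop stands in a deposited column without a header and was read as an FDR because it fell as PETs rose. Tables of pairs between chromosomes were not used, and chromosomes 1 to 22 and X were kept. Starts were raised by 1 to be 1-based.

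Each loop was counted once per gene. Rates are per 1000000 PETs of the library, with exact Poisson 95% intervals. Ratios have exact conditional (Clopper-Pearson) intervals. PETs carry no molecular identifiers. Intervals cover counting error only, because each line had 1 library. The rank and call background were 10 kb tiles that touched an anchor. Calls were tested on simulated data. All 8 genes are named, with the gene of nearest loop rate to each, 0 PETs being set to 3. Other keratin and keratin-binding genes of the plan, protein sequences and 7 promoters were not analysed here, because no hg19 annotation or matching sequence was used. The members and lists were chosen with earlier results of these data known. Ranks among long anchors, single loops of HCT116 against LS513, places with anchors in both libraries and the removal of loops within 1 promoter were chosen after seeing the data. Alternatives covered the distance from the TSS, loops with at least 2 PETs or an adjusted p under 0.01, unfiltered pairs, scaling by chromosome, rates per kb of anchor, and the fold and PET minimum of the tile calls. The scripts ran in Python 3.11.15 with pandas 2.3.3, numpy 2.4.6, matplotlib 3.10.9 and scipy 1.17.1.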

Additional observations from a re-analysis of the deposited data

How the results depend on the processing

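No paired analysis was possible because each line had 1 library and no replicate numbers, and no library could be left out of a line. With loops of adjusted p under 0.01 in the authors' deposited table, 1 keratin promoter was called between HCT116 and LS513 by loop PETs (KRT80, 2.08-fold) where 0 were with all loops. Scaled by chromosome, 1 was called by same-anchor PETs (KRT18, 0.476) where 0 were. With anchors required in both libraries, the promoters called between SW620 and SW480 went to 0 by loop PETs, where 2 were before, and to 1 by same-anchor PETs, where 3 were, since fewer promoters are compared. At 3-fold, 8.12% of tiles were called between HCT116 and LS513 by loop PETs, against 15.1% at 2-fold. The same-anchor ratio of KRT23 between SW620 and SW480 (3.86) reversed to 0.155 with anchors within 2 kb and to 0.371 within 10 kb, since other anchors are then counted, and was 1.06 and not called per kb of anchor. By loop PETs KRT23 became called at 0.137 (2 kb), 0.291 (10 kb) and 0.158 (per kb), and KRT8 at 0.496 with loops of at least 2 PETs and 0.489 with an adjusted p under 0.01. With at least 2 PETs per loop the HCT116 to LS513 ratios of KRT8 and KRT19 turned to 1.11 and 1.01, uncalled. The cause was not tested for the changes at KRT80, KRT18 and KRT8. SW480, with 13885 filtered PETs, limits every ratio it enters.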
